A study of Mus musculus with 111 samples.

Results

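Ppp1r1b, Penk, Rgs9, Pde10a, Adora2a, Drd2, Tac1, Epyc and the clone-named row RP23-355L10.3 were followed across RNA-seq libraries of the mouse tuberomammillary nucleus (TMN), the posterior hypothalamic nucleus whose neurons make histamine. These 9 rows, of 54087 gene rows in the count tables, were chosen by their read counts in these libraries and by their part in the rhythm difference between Q5A and control animals, so that their own levels and calls are given here as a description. C57BL/6J mice of both sexes, aged 8 to 10 weeks, had received an adeno-associated virus (AAV) in the TMN on both sides, and the tissue was taken 3 weeks later. In 32 libraries the virus encoded GFP, in 39 it encoded wild-type histone H3.3, and in 39 it encoded Q5A, an H3.3 in which alanine replaces glutamine 5, the residue that accepts a monoamine. GFP and H3.3 together made up 71 control libraries. Every virus also expressed GFP, by which the tissue was cut out, and the cells kept their own H3.3 genes under all viruses. Each library came from 1 animal, and the 18 groups of virus and zeitgeber time (ZT0, 4, 8, 12, 16 and 20, with lights on at ZT0) held 4 to 8 libraries each in cohorts 1 to 3.

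Striatal projection neurons are the inhibitory output cells of the striatum, and they receive dense dopamine input from the midbrain. Dopamine and adenosine receptors on these cells raise or lower cyclic AMP through a striatal adenylyl cyclase. The signal is ended by phosphodiesterases and passed on by protein kinase A, one of whose targets is DARPP-32, the product of Ppp1r1b. The projection neurons fall into those that carry the dopamine D2 receptor with the adenosine receptor encoded by Adora2a and enkephalin, and those that carry substance P and dynorphin. Neither class belongs to the tuberomammillary nucleus, although several of their genes are also used by hypothalamic and midbrain neurons. Epyc encodes a small leucine-rich proteoglycan of the extracellular matrix and is no classical marker of the striatum.

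RefSeq promoters (GRCm38.p6) matched 5 of the 9 rows by symbol. The 250 bases before the start site are shown for a receptor, a regulator of its G protein and a peptide precursor, each with a single entry, with the matches of the searched letters in capitals.
Drd2, chr9:49340153-49340402, plus strand: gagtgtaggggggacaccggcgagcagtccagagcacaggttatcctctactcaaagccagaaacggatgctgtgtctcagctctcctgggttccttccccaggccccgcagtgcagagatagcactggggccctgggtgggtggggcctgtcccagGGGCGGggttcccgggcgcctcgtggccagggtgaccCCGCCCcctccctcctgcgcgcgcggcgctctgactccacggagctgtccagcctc
Rgs9, chr11:109298182-109298431, minus strand: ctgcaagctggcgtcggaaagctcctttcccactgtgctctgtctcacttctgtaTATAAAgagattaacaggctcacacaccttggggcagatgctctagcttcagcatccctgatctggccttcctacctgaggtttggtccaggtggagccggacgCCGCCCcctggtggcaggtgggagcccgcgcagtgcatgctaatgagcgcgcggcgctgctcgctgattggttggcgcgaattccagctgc
Tac1, chr6:7554811-7555060, plus strand: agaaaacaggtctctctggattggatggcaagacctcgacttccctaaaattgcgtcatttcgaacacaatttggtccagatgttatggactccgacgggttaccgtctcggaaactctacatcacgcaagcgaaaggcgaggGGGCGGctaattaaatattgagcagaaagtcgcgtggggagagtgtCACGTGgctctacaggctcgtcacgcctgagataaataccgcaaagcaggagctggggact
The letters searched on both strands were CACGTG (the E-box read by CLOCK and BMAL1), TGACGTCA (the cyclic AMP response element), TATAAA and GGGCGG, and they were found in 6.02%, 1.55%, 12.4% and 32.7% of 32851 promoters of the same length. GGGCGG, here also in its reverse form CCGCCC, lay 93 and 56 bases before the start in Drd2, 91 bases before it in Rgs9 and 107 bases before it in Tac1. CACGTG was met in Tac1, 61 bases before the start, and TATAAA in Rgs9, 195 bases before the start. TGACGTCA had no match in these windows.

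Gene rows held 673306 to 3375352 reads per library, with a median of 1474422.5, and 3.49% to 5.63% of the uniquely placed reads. The kit was stranded and the counting took reads of 1 strand only. Whether the counted reads came from the mRNA or from the opposite strand was not tested. Levels below are therefore those of the counted rows, and were not shown to be those of the mRNA. Common transcripts had few reads, with medians of 106.5 for Actb, 276 for Snap25 and 20 for Malat1. Levels are given below as reads and as CPM, the counts per 1 000 000 after scaling by the trimmed mean of M values. The row of Hdc, the gene of the enzyme that makes histamine and defines the nucleus, had a median of 4 reads and a range of 0 to 53. With the strand untested, these few reads do not show how much Hdc mRNA the tissue held. The 3 libraries that stood apart in the members are all of cohort 1, and they are named here as Q5A ZT20 replicate 3, H3.3 ZT12 replicate 1 and GFP ZT12 replicate 3. Their gene rows held 1198179, 1142254 and 1223272 reads. Their shares of uniquely placed reads in gene rows, at 3.50%, 3.49% and 3.55%, were the 3 lowest of the 110 libraries. Hdc read 0, 2 and 1 in them. The part of this low share in the levels below was not tested.

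Summed over the 9 members, the level was 12455 CPM in Q5A ZT20 replicate 3, 10079 CPM in H3.3 ZT12 replicate 1 and 6991.9 CPM in GFP ZT12 replicate 3. The other 107 libraries lay between 111 and 1015.6 CPM, and the median of all was 196 CPM. RP23-355L10.3 made up most of that sum. Without it, the 8 named genes summed to 1410.5, 900.2 and 752 CPM in the 3 libraries and to at most 170 CPM in any other. The groups of virus and ZT to which the 3 belong held 5, 6 and 5 other libraries, and none of these came near: the next highest sums of the 9 members were 273 CPM in Q5A at ZT20, 299.8 CPM in H3.3 at ZT12 and 196.4 CPM in GFP at ZT12.

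**Figure D1:**
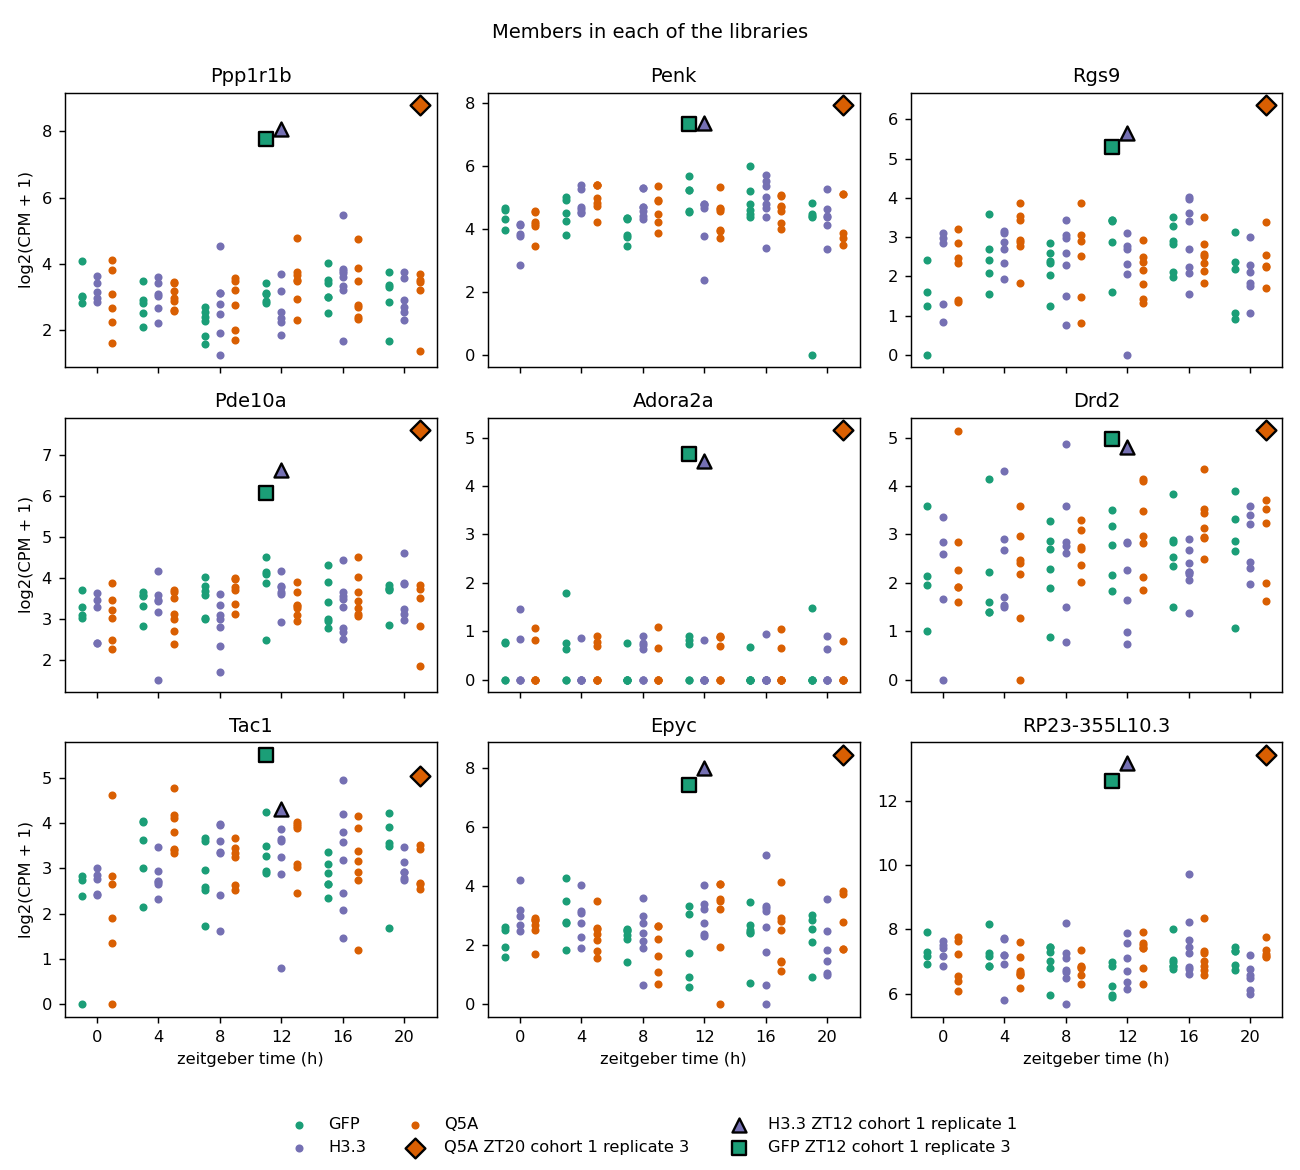
Level of each of the 9 members, as log2(CPM + 1), in each of the 110 libraries against zeitgeber time in hours, with 1 point per library coloured by virus and the 3 libraries as large outlined symbols. The 3 large symbols lie above all other points of the same gene for Ppp1r1b, Penk, Rgs9, Pde10a, Adora2a, Epyc and RP23-355L10.3. For Drd2 and Tac1 the highest of them lies above the other points and the lowest among them.

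Ppp1r1b (chr11:98348404-98357796, plus strand, GRCm38) encodes DARPP-32, an inhibitor of protein phosphatase 1 that projection neurons use to relay dopamine signals. In Q5A at ZT20 the 6 libraries read 3, 11, 12, 15, 16 and 485. In H3.3 at ZT12 the 7 libraries read 4, 4, 4, 5, 12, 16 and 271. In GFP at ZT12 the 6 libraries read 9, 13, 15, 17, 39 and 252. In each group 1 library stood apart, and the others overlapped between groups. The 3 high libraries were at 442, 269 and 219 CPM, which is 59.8, 36.3 and 29.6 times the median of all libraries, 7.40 CPM. Pde10a (chr17:8525372-8986648, plus strand), the phosphodiesterase that is dense in projection neurons, read 214, 99 and 77 in Q5A ZT20 replicate 3, H3.3 ZT12 replicate 1 and GFP ZT12 replicate 3, against a median of 13 reads. Its levels in them were 195, 98.3 and 66.8 CPM, and the highest of any other library was 23.6 CPM. Rgs9 (chr11:109225355-109298129, minus strand), which speeds the shut-off of the G proteins below the dopamine and opioid receptors, read 89, 50 and 44, against a median of 6. It reached 81.2, 49.6 and 38.2 CPM, and no other library passed 15.2 CPM. The 3 signalling genes therefore had the same libraries at the top, in the same order.

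Adora2a (chr10:75316877-75334784, plus strand), the adenosine receptor gene of the D2 class, separated the libraries without overlap. It had no read in 71 of the 110 libraries and at most 4 reads in any library but the 3, where it read 38, 22 and 28. Its levels there were 34.7, 21.8 and 24.3 CPM, and the highest level elsewhere was 2.45 CPM. With so few reads it was the 1 member of 9 that did not pass the filter on low counts.

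Drd2 (chr9:49340627-49408177, plus strand), the dopamine D2 receptor, did not separate them. It read 38, 27 and 35 in the 3 libraries, with a median of 7, and their levels of 34.7, 26.8 and 30.4 CPM had ranks 1, 5 and 3 of 110. Q5A ZT0 cohort 2 replicate 2 read 62, which is 34.1 CPM, and H3.3 ZT8 cohort 3 replicate 1 stood at 28.0 CPM. Midbrain dopamine neurons also make Drd2, as their autoreceptor, so the summed level of a list of 9 midbrain dopamine genes (among them the transporter gene Slc6a3 and the tyrosine hydroxylase gene Th) was set beside it, a comparison chosen after the Drd2 values were seen. That sum was 514 CPM in Q5A ZT0 cohort 2 replicate 2 and 539 CPM in H3.3 ZT8 cohort 3 replicate 1, the second highest and the highest of all libraries. Next in Drd2 came Q5A ZT16 cohort 1 replicate 4 and H3.3 ZT4 cohort 1 replicate 4, at 19.4 and 18.8 CPM, with midbrain sums of 359 and 357 CPM. Against these, the 3 libraries had the 3 lowest midbrain sums of the 110, at 4.56, 2.98 and 3.47 CPM, where the median was 22.6 CPM. High Drd2 thus occurred in libraries at both ends of the midbrain list.

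Penk (chr4:4133531-4138819, minus strand), the precursor of enkephalin, is carried by the D2 class and also by hypothalamic neurons, and it had a median of 31 reads. The 6 libraries of Q5A at ZT20 read 15, 16, 26, 35, 48 and 265. In H3.3 at ZT12 the reads were 4, 19, 27, 27, 32, 39 and 164, and in GFP at ZT12 they were 33, 39, 81, 86, 182 and 201. The count of 201 in GFP at ZT12 came from a deeper library than the 182 of GFP ZT12 replicate 3, and as CPM the latter was higher, at 158 against 50.6. The 3 libraries, at 242, 163 and 158 CPM, were 10.6, 7.15 and 6.94 times the median, and the highest other library was GFP ZT16 cohort 1 replicate 1 with 62.7 CPM. Tac1 (chr6:7554879-7565834, plus strand), the precursor of substance P, overlapped widely. It read 35, 19 and 51 in the 3 libraries, with a median of 11, and had ranks 2, 6 and 1. H3.3 ZT16 cohort 2 replicate 2 read 61 for Tac1, which is 29.9 CPM, above the 18.9 CPM of H3.3 ZT12 replicate 1.

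Epyc (chr10:97644068-97682454, plus strand) read 4, 5, 8, 13, 19 and 382 in the 6 libraries of Q5A at ZT20. In H3.3 ZT12 replicate 1 and GFP ZT12 replicate 3 it read 255 and 197, and the median of all libraries was 7. The levels were 349, 253 and 171 CPM, which is 70.9, 51.5 and 34.8 times the median, and the highest elsewhere was 32.6 CPM. RP23-355L10.3 has a clone name and no position in the annotation used here. Its 3 high libraries read 12106, 9248 and 7188, where the median was 189. The other libraries of Q5A at ZT20 read 156 to 322, those of H3.3 at ZT12 read 71 to 313, and those of GFP at ZT12 read 129 to 242. At 11045, 9179 and 6240.1 CPM it was 82.1, 68.2 and 46.4 times its median in the 3 libraries, the largest multiples among the 8 members whose median is above 0.

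Of the 9 members, 7 had the same 3 libraries as their 3 highest, and for Drd2 and Tac1 it was 2 of the 3. Of the 8 members that passed the filter, 6 had this pattern, and so had 298 of the 13891 filtered genes (2.15%). The rows were selected on these levels, so nothing is read from that share. The SD of log2 level over the libraries fell from 1.09 to 0.71 for Ppp1r1b, from 1.16 to 0.62 for RP23-355L10.3 and from 0.76 to 0.35 for Adora2a when the 3 were left out, while Drd2 and Tac1 changed little, from 0.95 to 0.88 and from 0.86 to 0.81. Pearson's r of each member with the mean of the other 8 (log2 CPM, n = 110) was 0.34 to 0.82, and without the 3 libraries (n = 107) it was 0.02 to 0.39. Ppp1r1b and Penk kept the highest values, 0.39 and 0.33. The libraries share batches and low counts, and these correlations are given as a description.

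Below the 3, H3.3 ZT16 cohort 1 replicate 4 came next, with a summed level of 1015.6 CPM. It read 51 for Ppp1r1b, 38 for Epyc and 985 for RP23-355L10.3, the highest of the other libraries in each, but 0 for Adora2a. Penk read 52 there, or 44.6 CPM, within the range of its group. Its gene share, 3.74%, was the eighth lowest of 110. Q5A ZT16 cohort 1 replicate 1 followed with 418.5 CPM, and read 50 for Ppp1r1b and 623 for RP23-355L10.3. Group medians ran from 4.10 CPM (GFP at ZT8) to 11.8 CPM (H3.3 at ZT16) for Ppp1r1b, from 13.2 CPM (H3.3 at ZT0) to 36.9 CPM (GFP at ZT12) for Penk, and from 91.5 CPM (H3.3 at ZT20) to 172 CPM (Q5A at ZT12) for RP23-355L10.3. Libraries of neighbouring groups overlapped throughout. In such bulk tissue, fewer cells of a type and less RNA per cell cannot be told apart.

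Further genes of striatal projection neurons, from a list of 46, bore on whether the members stood alone. Of these, 44 were in the tables. Their summed level was 2923, 2339 and 2006 CPM in Q5A ZT20 replicate 3, H3.3 ZT12 replicate 1 and GFP ZT12 replicate 3, which is 4.28, 3.43 and 2.94 times the median of 683 CPM. The other 107 libraries lay between 559 and 925 CPM, with H3.3 ZT16 cohort 1 replicate 4 highest again. All 3 libraries were the 3 highest for 19 of the 44 genes, 2 of them were for 12 genes, 1 of them for 11 genes, and none for Six3 and Ddit4l. In 36 of the 44 genes all 3 were above the median of all libraries. Among all filtered genes, 298 of 13891 (2.15%) had the 3 libraries as their 3 highest. The list was chosen with earlier results of these data known.

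Of the transcription factors of the lineage, some were high in all 3 libraries and others were not. Bcl11b, which projection neurons need to mature, stood at 68.4, 53.6 and 46.9 CPM against a median of 3.24 CPM. Foxp1 was at 69.3, 55.6 and 32.99 CPM against 5.70 CPM, and Meis2 was at 151, 118 and 144 CPM against 15.1 CPM. Foxp2 was at 17.3 and 25.2 CPM in Q5A ZT20 replicate 3 and GFP ZT12 replicate 3 but at 2.98 CPM in H3.3 ZT12 replicate 1, below its median of 4.00 CPM. Six3 had ranks 7, 13 and 11 of 110, and Dlx5 had ranks 5, 1 and 38. Eya1, with a median of 0 reads, read 0, 0 and 2 and was too sparse to place the libraries. Gpr6, an orphan receptor of the D2 class, was at 20.1, 7.94 and 15.6 CPM, and its median was 0. Adcy5, the main striatal adenylyl cyclase, was at 380, 273 and 227 CPM, where no other library passed 111 CPM. Scn4b, a sodium channel subunit, was at 145, 127 and 53.8 CPM against a median of 4.29 CPM. In 8 of the 44 genes at least 1 of the 3 was at or below the median. Pdyn, the precursor of dynorphin, was at 2.74 and 3.97 CPM in the first pair of libraries and at 19.1 CPM in GFP ZT12 replicate 3. Isl1, a factor of the substance P class, had no read in Q5A ZT20 replicate 3, and Cnr1, the cannabinoid receptor, was below its median in GFP ZT12 replicate 3.

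**Figure D2:**
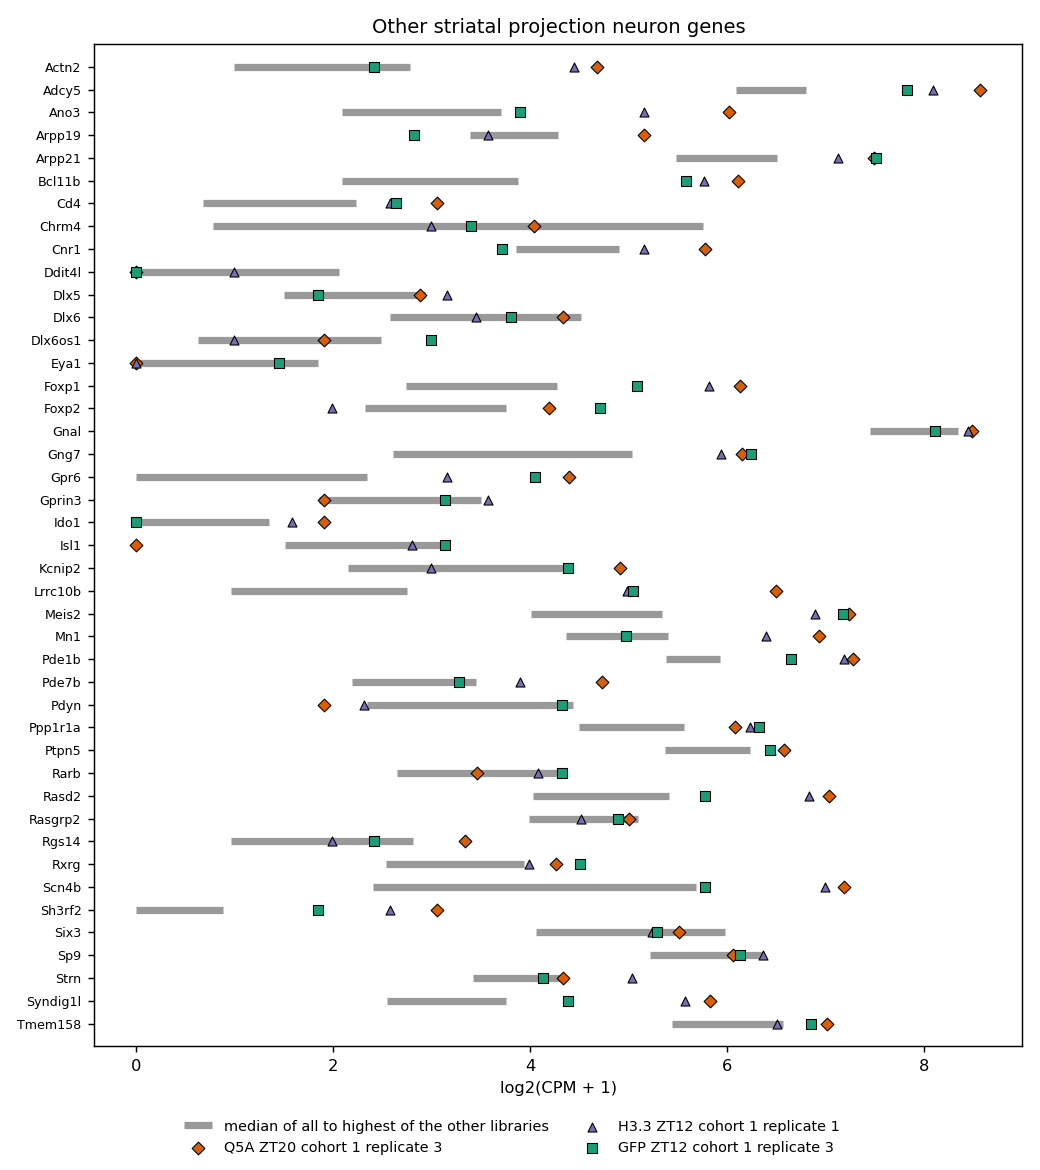
Level, as log2(CPM + 1), of other striatal projection neuron genes found in the tables: grey bars run from the median of all libraries to the highest of the other 107, and symbols mark the 3 libraries. For genes such as Adcy5 and Bcl11b all 3 symbols lie right of the bar. Others, such as Six3, Ddit4l, Chrm4 and Pdyn, have none to the right.

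Lists for other cell types were summed in the same way. Striatal interneuron genes, 11 in the list, summed to 90.3, 88.3 and 85.9 CPM, close to the median of 82.2 CPM. That sum joins genes that moved in opposite directions. Chat, on 8, 8 and 4 reads, was at 7.30, 7.94 and 3.47 CPM against a median of 0.67 CPM. Trh was at 0.91, 2.98 and 0 CPM against 10.2 CPM. Genes of cortical and hippocampal neurons (20 in the list) summed to 903, 520 and 361 CPM, ranks 1, 3 and 10 of 110, against a range of 165 to 627 CPM elsewhere. Nrgn and Camk2a, which projection neurons also use, made up most of this, with 450, 232 and 60.8 CPM and with 269, 166 and 190 CPM. The cortical vesicular glutamate transporter gene Slc17a7 was at 20.1, 8.93 and 2.60 CPM against a median of 2.88 CPM, ranks 4, 19 and 60. Neurod6 had 1, 0 and 0 reads, where its median was 0. Lamp5 was at 18.2, 7.94 and 6.08 CPM against 2.25 CPM. Bhlhe22 and Nptx1 were below their medians of 43.5 and 24.2 CPM in all 3. Of the thalamic list (9 genes), the sums were 43.8, 181 and 46.0 CPM against a median of 88.8 CPM, so H3.3 ZT12 replicate 1 ranked 12 and the other pair ranked 109 and 108. Its Prkcd, a marker of thalamic relay neurons, was at 29.8 CPM, and in the other pair it was at 0.91 and 4.34 CPM.

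Genes of the labelled tissue summed to less than their median. The list of 20 histaminergic and posterior hypothalamic genes summed to 177, 224 and 155 CPM, ranks 100, 74 and 109 of 110, where the median was 297 CPM and the other libraries ran from 154 to 729 CPM. In all 3 libraries 6 of the 20, Hcrt, Gal and Sim1 among them, had no read. Their medians over all libraries ran from 1 read (Sim1 and Lhx9) to 36 reads (Hcrt), with 4 for Gal. Slc17a6, the glutamate transporter gene of hypothalamus and thalamus, was at 1.82, 5.96 and 2.60 CPM, ranks 110, 105 and 109. Slc18a2, the vesicular monoamine transporter gene, went the other way, at 106, 146 and 103 CPM against a median of 60.5 CPM. So did Hrh3 of the histaminergic list, at 37.4, 29.8 and 19.1 CPM against 11.4 CPM, ranks 1, 2 and 10. In the midbrain list 5 of 9 genes were at 0 in all 3. These rows are near the floor in all libraries, with median reads of 0 for Foxa2 and En1, 1 for Slc6a3 and Pitx3, and 2 for Foxa1. Glial and vascular lists lay within the range of the other libraries. The oligodendrocyte sums were 1460, 1903 and 1291 CPM against a median of 1826 CPM, astrocyte sums were 293, 298 and 342 CPM against 448 CPM, microglial sums were 391, 376 and 372 CPM against 291 CPM, and endothelial and mural sums were 46.5, 33.7 and 22.6 CPM against 41.3 CPM. Choroid plexus and ependymal genes summed to 12.8, 10.9 and 15.6 CPM against 11.6 CPM.

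**Figure D3:**
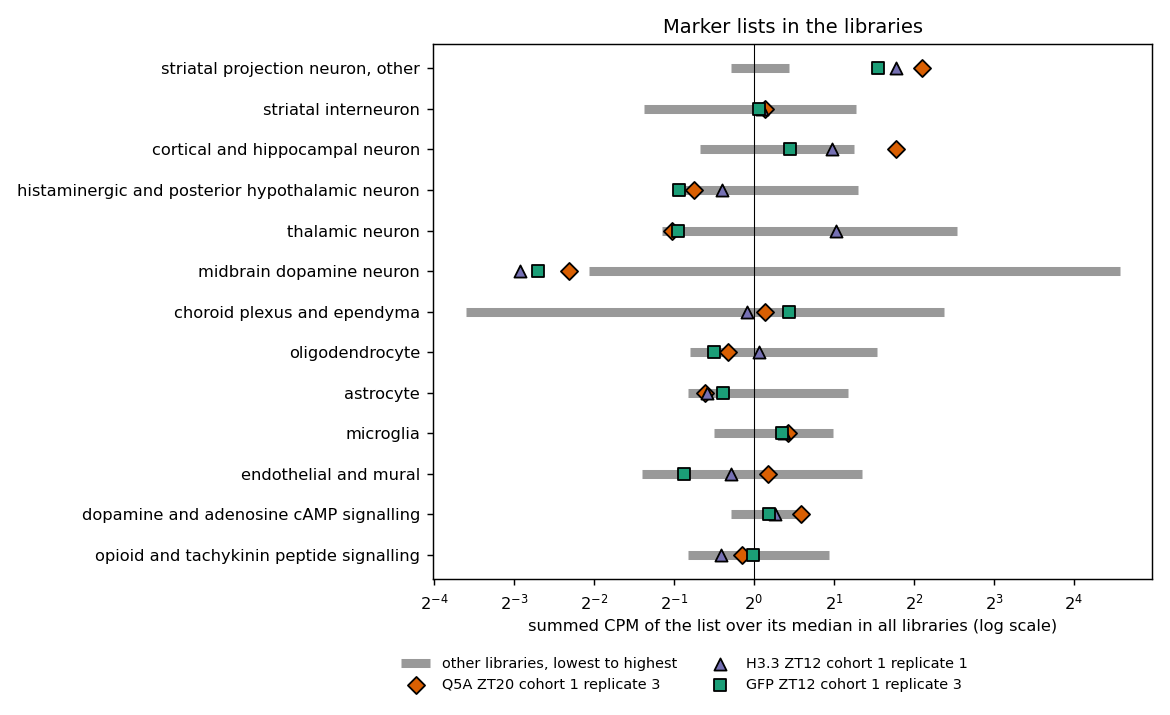
Summed CPM of each marker list over its median in all 110 libraries, on a log2-spaced axis: grey bars span the other 107 libraries and symbols mark the 3. All 3 symbols lie beyond the bar for the striatal projection neuron list, to the right, and for the midbrain dopamine list, to the left.

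Within the signalling pathway itself levels were uneven. A list of 33 dopamine, adenosine and cyclic AMP genes, 32 of them in the tables, summed to 2626, 2109 and 1998 CPM, ranks 2, 13 and 21 of 110, with a median of 1754 CPM. The 3 libraries were the 3 highest for 8 of the 32, and for 298 of the 13891 filtered genes (2.15%). Of these 8, Ptpn5, Adcy5, Gng7, Pde1b, Arpp21 and Ppp1r1a also belong to the striatal list and were counted there. Gnb5, the G protein beta subunit that pairs with RGS9, was at 133, 101 and 60.8 CPM against a median of 27.5 CPM, and Ppp3ca, the calcineurin subunit that dephosphorylates DARPP-32, was at 296, 168 and 136 CPM against 65.4 CPM. Gnal, the G protein alpha subunit that replaces Gs in striatum, was at 359, 349 and 277 CPM against 174 CPM. Gnas, which encodes Gs itself, had its 3 lowest values of all libraries there, 308, 253 and 306 CPM against a median of 770.5 CPM. Opioid and tachykinin genes, 15 in the list, summed to 317, 263 and 348 CPM, near the median of 351 CPM.

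The study asked whether Q5A alters daily rhythms of expression, and 3 such libraries at ZT12 and ZT20 enter that comparison on both sides. A 24 h cosine curve was fitted to the counts of each gene with edgeR, and the difference between Q5A and the pooled controls was tested at an adjusted p below 0.05. It called 17 of 13891 genes (0.122%), among them 3 of the 8 members tested, RP23-355L10.3, Epyc and Ppp1r1b. Since the members were selected on this contrast, nothing is read from their share. Without the 3 libraries 4 of 13837 genes were called (0.0289%), all of them among the 17, and no member was. In cohort 1 alone, to which the 3 belong, 777 of 12640 genes were called (6.15%), with 6 members: Epyc, Pde10a, Penk, Ppp1r1b, RP23-355L10.3 and Rgs9. With the 3 libraries left out of cohort 1, 762 of 13042 genes were called (5.84%) and again no member. With no filter on low counts 98 of 36018 genes were called (0.272%), and Adora2a joined the 3 members.

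Single libraries weighed differently. Leaving out Q5A ZT20 replicate 3 alone left 3 genes called and no member. Leaving out H3.3 ZT12 replicate 1 or GFP ZT12 replicate 3 left 11 and 12 genes, with 2 members each, Epyc and RP23-355L10.3. Of the 46 genes of the striatal list, 32 were tested in all libraries and none was called, and 31 were tested without the 3, again with none called. In cohort 1 alone 4 were called, Pdyn, Rasd2, Scn4b and Tmem158, and without the 3 libraries Gnal, Pdyn and Scn4b were. None of 26 cyclic AMP genes or of 10 opioid and tachykinin genes tested was called with or without the 3 libraries.

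Of the 14 genes called that are not members, 5 had the 3 libraries as their 3 highest. Among all filtered genes 298 of 13891 did (2.15%). For such genes a weaker call without the 3 libraries follows from their high values there, and is given as a description. RP23-287O2.2 read 220, 111 and 48 in them against a median of 1, with an edgeR adjusted p of 0.000422, and without them it did not pass the filter. Ankrd63 read 25, 14 and 29 against a median of 0, with an edgeR adjusted p of 0.0336, and it too was then not tested. RP23-76M24.3 read 4009, 3319 and 2967 against a median of 343.5, and its edgeR adjusted p went from 0.0179 to 0.572 when the 3 were left out. For Gm10849 it went from 0.0221 to 0.416, and for RP23-96N11.5 from 0.0290 to 0.521. Ankk1, which lies next to Drd2, read 266, 135 and 83 against a median of 5 and had 2 of the 3 libraries on top, and its edgeR adjusted p went from 0.0231 to 0.315.

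The other 8 called genes had none of the 3 libraries among their 3 highest. Hdc read 0, 2 and 1 in them, and its edgeR adjusted p was 0.0266 with and 0.0281 without the 3 libraries. With only Q5A ZT20 replicate 3 left out, its edgeR adjusted p was 0.0588, above the threshold. Without the 3, Hoxb3, Ighg2b and Raxos1 also stayed called, each at an edgeR adjusted p of 0.0166. Igkc, RP24-347C6.4 and RP23-278M14.1 moved to 0.0704 and Ighg2c to 0.147 in that edgeR fit. These rows reached up to 803 reads in single other libraries, and their part in the calls was not tested.

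**Figure D4:**
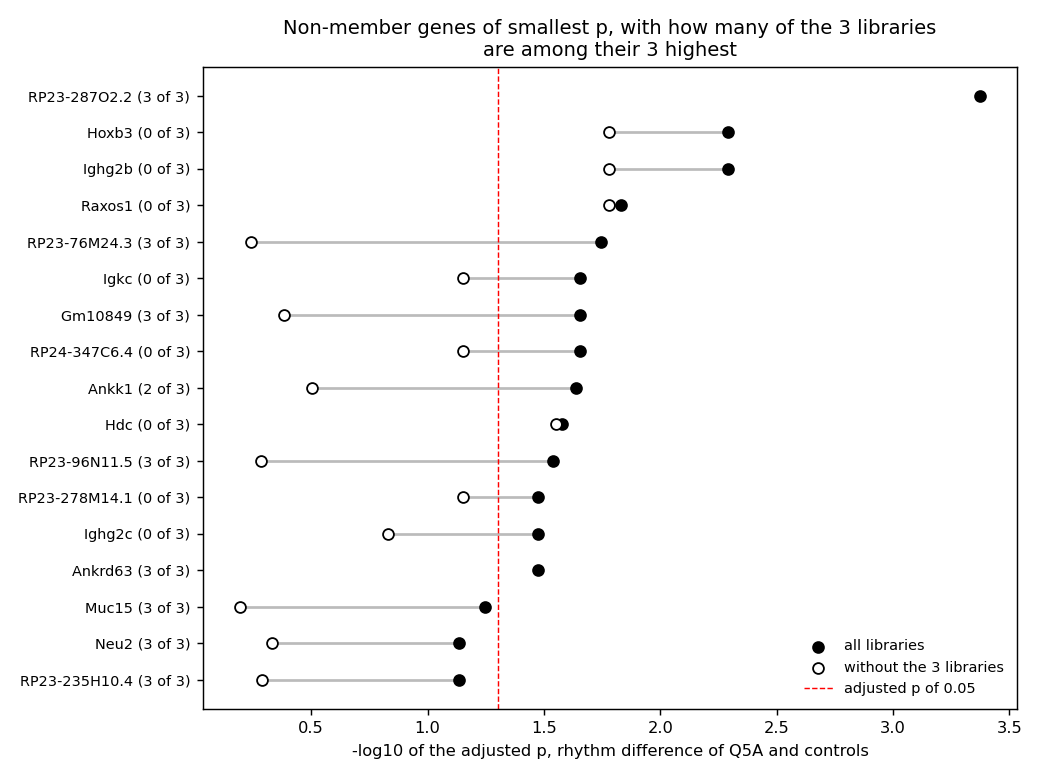
Minus log10 of the edgeR adjusted p of the rhythm difference between Q5A and controls, with all libraries (filled) and without the 3 (open), for the 17 genes of smallest p that are not members, with the number of the 3 libraries among each gene's 3 highest in brackets. Called genes with 3 of 3 move left of the dashed line at 0.05 or lose their open point, since RP23-287O2.2 and Ankrd63 no longer pass the filter; Hoxb3, Ighg2b, Raxos1 and Hdc stay right of it.

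Daily amplitudes came from a 24 h cosine fitted to log2 CPM in each arm. In controls (n = 71) the log2 amplitude was 0.46 ± 0.15 (SE) for Rgs9, 0.41 ± 0.15 for Penk and 0.35 ± 0.17 for Ppp1r1b, and at most 0.29 for the other members. Without the 3 libraries (n = 69) these amplitudes were 0.31 ± 0.14, 0.27 ± 0.14 and 0.32 ± 0.11. In Q5A (n = 39) RP23-355L10.3 had an amplitude of 0.54 ± 0.25, Epyc of 0.54 ± 0.29, Drd2 of 0.50 ± 0.20 and Ppp1r1b of 0.37 ± 0.26. Leaving out Q5A ZT20 replicate 3 (n = 38) gave 0.27 ± 0.11, 0.25 ± 0.21, 0.46 ± 0.19 and 0.21 ± 0.17. The amplitude of Penk in Q5A went from 0.07 ± 0.17 to 0.22 ± 0.13. Of the 18 amplitudes, 17 moved by no more than 1 SE, the exception being RP23-355L10.3 in Q5A. In cohort 1 alone 7 of the 18 moved by more: in Q5A (n = 26) Epyc was at 0.92 ± 0.34, RP23-355L10.3 at 0.84 ± 0.36, Drd2 at 0.81 ± 0.24 and Ppp1r1b at 0.73 ± 0.36, and in controls (n = 52) Epyc was at 0.49 ± 0.24.

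**Figure D5:**
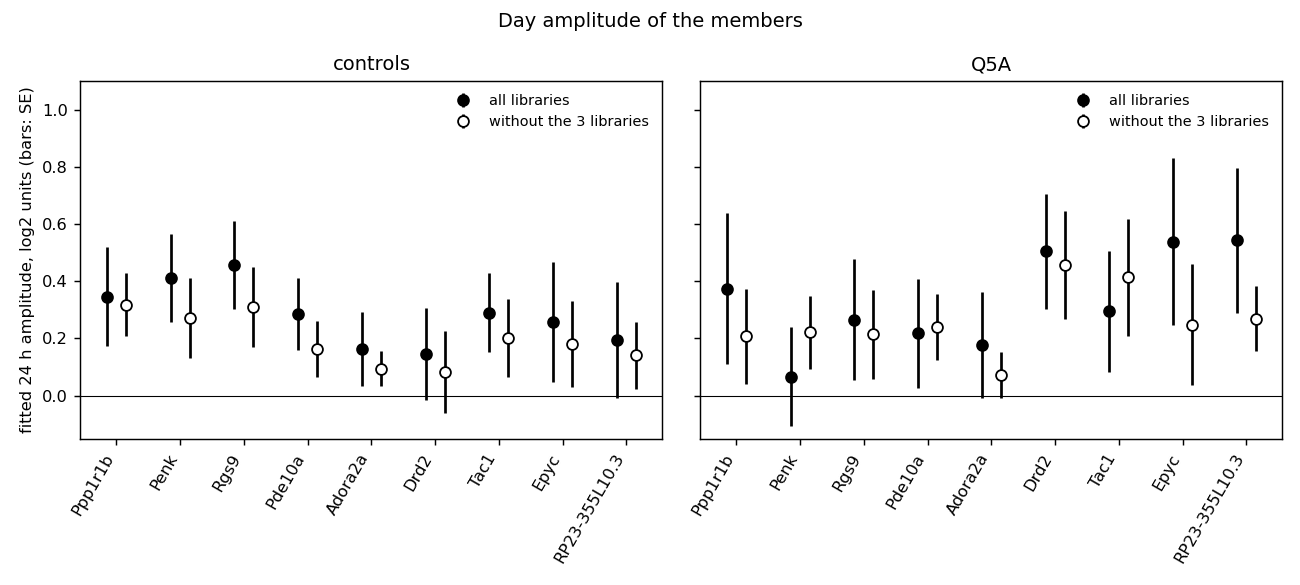
Fitted 24 h amplitude in log2 units of each member in controls (left) and Q5A (right), with all libraries (filled) and without the 3 libraries (open), bars showing the SE of the fit. In Q5A, Epyc and RP23-355L10.3 fall from 0.54 to 0.25 and 0.27, and Drd2 lies at 0.50 and 0.46.

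JTK_CYCLE, the rank-based rhythm test that the study used, was run in each arm at an adjusted p below 0.05 per gene. It called 2127 of 18066 genes in controls (11.8%), 1390 in GFP (7.69%), 784 in H3.3 (4.34%) and 466 in Q5A (2.58%). Ppp1r1b was called in controls, with a period of 16 h, and no other member was called in any of these arms. Without the 3 libraries 2325 genes were called in controls (12.9%), and Ppp1r1b was again the member called. In cohort 1 alone Ppp1r1b was not called, and Penk was called in controls and RP23-355L10.3 in Q5A, both with a period of 24 h. The calls with and without the 3 libraries shared 1965 genes, 92.4% of the former and 84.5% of the latter. In GFP, where 1 of 32 libraries was left out, 1676 genes were called and 1178 were shared, 84.7% and 70.3% of the 2 lists. The H3.3 lists, of 784 and 775 genes, shared 639, or 81.5% and 82.5%, and the Q5A lists, of 466 and 413 genes, shared 361, or 77.5% and 87.4%. Of 40 tested genes of the striatal list, 4 were called in controls, Kcnip2, Pde1b, Syndig1l and Tmem158, and Gnal joined them without the 3 libraries. In GFP 4 were called, Gnal, Kcnip2, Pde1b and Syndig1l, with Scn4b added without GFP ZT12 replicate 3. H3.3 had 1, Meis2, with Rasgrp2 and Strn added, and Q5A had Scn4b both ways. Of 30 cyclic AMP genes 5 were called in controls with and without the 3 libraries, and of 14 opioid and tachykinin genes 1, Cpe, the carboxypeptidase that trims peptide precursors.

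At single times the members' fold changes followed the same libraries. The members and the 3 libraries were selected on these levels. The shifts on leaving them out follow from that selection and are given as a description. For Q5A against controls at ZT20, where Q5A ZT20 replicate 3 is 1 of 6 Q5A libraries, the edgeR log2 fold change was 4.05 ± 0.71 (SE) for RP23-355L10.3, 3.11 ± 0.69 for Ppp1r1b, 1.55 ± 0.54 for Pde10a and 1.43 ± 0.51 for Penk. Without that library the values were 0.47 ± 0.20, 0.07 ± 0.36, -0.43 ± 0.31 and 0.02 ± 0.39. The median over the 6 members tested went from 1.49 to 0.02, beside a median over all tested genes of -0.01. At ZT12, where the other pair of libraries are controls, the sign was turned: RP23-355L10.3 was at -2.96 ± 1.05, Epyc at -1.84 ± 0.89, Ppp1r1b at -1.72 ± 0.83 and Rgs9 at -1.30 ± 0.52. Without the pair these became 0.52 ± 0.25, 0.55 ± 0.41, 0.67 ± 0.29 and -0.53 ± 0.36, and the median of the 8 members tested went from -1.22 to 0.36. H3.3 and GFP at ZT12 hold 1 of the pair each, and the median over 7 members was -0.01 with them and -0.38 without. The striatal list moved the same way by less, with medians of 0.39 and -0.14 at ZT20 and of -0.35 and 0.00 at ZT12, with and without the 3 libraries.

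No gene passed an adjusted p of 0.01 in edgeR in these 3 contrasts: 0 of 9774 genes for H3.3 against GFP at ZT12, 0 of 10517 for Q5A against controls at ZT12 and 0 of 10008 at ZT20 (0.0% each). At an unadjusted p under 0.05 the counts were 2877, 296 and 1123, and DESeq2 called 58, 0 and 1 genes at its adjusted p of 0.01. Without the 3 libraries edgeR called 0 in each at that threshold, with 4142, 295 and 705 genes at an unadjusted p under 0.05. For H3.3 against GFP, however, 2092 genes were then under an adjusted p of 0.05, where the fit with all libraries had 0, and leaving out GFP ZT12 replicate 3 alone gave 26 calls at 0.01. The ZT12 contrasts share their control libraries.

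Genes outside the members whose levels were most like the mean of the members (log2 CPM over 110 libraries, Pearson's r) were Myo18a (0.86), Top2b (0.83), Scrn1 (0.81), Bcr (0.81), Ankrd63 (0.80), Adcy5 (0.76), RP23-76M24.3 (0.73), RP23-287O2.2 (0.71), Mki67 (0.71) and Fbxw8 (0.71). Over the 107 remaining libraries their r was 0.06 to 0.44, and none of the 10 was among the 10 highest there, where the highest was 0.49. By Spearman's rho over all libraries none was among the 10 highest either, and the highest rho was 0.48. Top2b, a DNA topoisomerase gene, read 1990, 2055 and 2802 in the 3 libraries against a median of 190.5, and Myo18a, which encodes a myosin, read 366, 311 and 457 against 74.5. In the annotation, exons of Top2b overlap on the opposite strand with Rarb, a retinoic acid receptor gene of the striatal list, and those of Muc15, whose edgeR adjusted p of the rhythm difference was 0.0566, overlap with Ano3 of the same list. Ppp1r1b, Penk and Epyc overlap on the opposite strand with the exons of 1700003D09Rik, A830012C17Rik and Gm10754, and Rgs9, Pde10a, Adora2a, Drd2 and Tac1 with none. Which strand the reads of such pairs came from was not tested.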

How the data were processed

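The data were RNA-seq libraries from polyadenylated RNA of microdissected mouse TMN, 1 animal each. The authors aligned reads to GRCm38 with STAR 2.7.11b, and the deposited values are raw counts per gene name from HTSeq 2.0.5 with the stranded option set to yes. Of 111 libraries, replicates 2 and 3 of cohort 2 in Q5A at ZT4 differed in 3 rows by 6 reads in all, less than the sampling noise, and were averaged and counted as 1 sample, which left 110. A further 18 files matched no sample label and were not used. The 5 rows for reads in no gene were left out of totals; they hold most reads, since gene rows hold 3.49% to 5.63% of uniquely placed reads. At 673306 to 3375352 reads in gene rows, rows with few reads are limited by counting error.

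The members, the gene lists and the 3 libraries named were chosen with earlier results of these data known. The tests were edgeR 4.0.16 in R 4.3.3 (TMM scaling, filterByExpr with a minimum count of 10 and a minimum total of 15, prior count 2, quasi-likelihood test, Benjamini-Hochberg adjustment), in all libraries for the rhythm difference (joint test of the interactions of arm with cosine and sine of a 24 h period) and in the groups of each contrast at ZT12 or ZT20. JTK_CYCLE was rewritten for periods of 8 to 24 h (20 templates, genes with a mean of at least 1 normalised count), with its adjusted p being the p times the templates and not adjusted over genes. CPM use the TMM-scaled library size, and a rank of 1 is the highest. The SE of a fold change is its size over the square root of the F statistic. Scripts were tested on simulated data. Alternatives were the libraries left out, RLE scaling, no filter, DESeq2 1.42.0, the cohort as a covariate, cohort 1 alone, a replicate block, and each replicate number of cohort 1 left out. Named genes were the members, list genes called in a test with or without the 3 libraries, the 10 genes most like the members and the 20 smallest p of the rhythm difference; other list genes were named to check the libraries. Some genes of the lists are not reported here. Positions and opposite-strand overlaps are from GENCODE M21 (GRCm38), in which 28499 of 54087 names matched. Analyses used Python 3.11.15, numpy 2.4.6, pandas 2.3.3 and scipy 1.17.1.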

Additional observations from a re-analysis of the deposited data

Results flagged for a closer look

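Within groups of 4 to 8 libraries, the gap of the extreme library to its neighbour, as a share of the group's range, was set against Dixon's 95% critical value, which chance passes in about 1 of 20 groups. The members were chosen by their levels in these libraries, so the values are a description and are not to be read against that rate. The summed level of the 9 members passed it in 8 of 18 groups, and in each the extreme library was the highest. In the groups of the 3 libraries the share was 0.993 (GFP at ZT12, 6991.9 CPM against a next value of 196.4 CPM), 0.984 (H3.3 at ZT12) and 0.992 (Q5A at ZT20). Summed over the 8 named genes, without RP23-355L10.3, it was 0.936, 0.95 and 0.96 in the same groups, and no other group passed.

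Other groups were flagged at lower levels. In H3.3 at ZT16 the share was 0.71, from cohort 1 replicate 4 at 1016 CPM against 408.5 CPM, and in Q5A at ZT16 it was 0.654, from cohort 1 replicate 1 at 418.5 CPM against 250.6 CPM. The share was 0.833 in GFP at ZT0 (301.8 against 199.8 CPM), 0.718 in GFP at ZT4 (352.3 against 227.6 CPM) and 0.655 in H3.3 at ZT8 (391.1 against 218.6 CPM). Member by member, 55 of 162 combinations of gene and group passed, some of them on few reads, such as Adora2a in GFP at ZT16, where the highest library was at 0.59 CPM and the others at 0. Causes were not tested.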

How the results depend on the processing

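The count of genes called in the rhythm difference, 17, was 4 without the 3 libraries, 98 with no filter, 10 in DESeq2, 777 in cohort 1 alone and 6 with the replicate block of cohort and number. Chosen after seeing the data, leaving out the 5 libraries highest in the members gave 0, where edgeR had 1640 genes at an unadjusted p under 0.05, and cohort 1 alone without the 3 gave 762. Leaving out single libraries or replicate numbers gave 2 to 18. Replicate numbers showed no sign of pairing the libraries: in cohort 1 deviations of 616 same-numbered pairs had a median r of -0.00072, with 110 above 0.1. In 2255 pairs of different number the median r was 3.16e-05, with 380 above 0.1. A pairing is not excluded by these values. Called members numbered 3 under RLE scaling and under a cohort covariate, 0 under the replicate block, 0 without cohort 1 replicate 3 and 0 in DESeq2, where the adjusted p of Ppp1r1b, Pde10a, Epyc and RP23-355L10.3 was not given. At ZT12, H3.3 against GFP went from 0 calls to 26 with no filter and 58 in DESeq2, and to 0 to 26 with a replicate left out, where 26 is without GFP ZT12 cohort 1 replicate 3. Q5A against controls gave 1 call at ZT12 and 31 at ZT20 with no filter, and 1 at ZT20 in DESeq2. Adjusting JTK over genes left 158 calls for controls, 1 for Q5A, 0 for GFP and 1 for H3.3. Without that adjustment over genes, cohort 1 alone gave 1088 JTK calls in Q5A and 826 in GFP. The calls per gene with a replicate left out were 1278 to 2202 for controls and 238 to 420 for Q5A. For GFP they were 695 to 1835 and for H3.3 369 to 470. These causes were not tested. Depth limits Adora2a, Hdc and other rows of few reads, and the part of the counted strand in their low counts was not tested.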

Other observations

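The 4 genes that stayed called in the rhythm difference without the 3 libraries, Hdc, Hoxb3, Ighg2b and Raxos1, had medians of 0 to 4 reads. Hdc ranged from 0 to 53 reads, and single libraries read up to 31 for Hoxb3, 171 for Raxos1 and 198 for Ighg2b. The immunoglobulin rows Igkc and Ighg2c, called with all libraries, reached 390 and 803 reads in single libraries against medians of 3 and 2. Without the 5 libraries highest in the members the edgeR adjusted p was 0.0614 for Hdc, 0.0584 for Raxos1, 0.0638 for Ighg2b and 0.365 for Hoxb3.

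Outside the striatal list, Prkar1b, a regulatory subunit of protein kinase A, was at 40.1, 25.8 and 68.6 CPM in Q5A ZT20 replicate 3, H3.3 ZT12 replicate 1 and GFP ZT12 replicate 3, ranks 108, 110 and 98 of 110. Calb2, the calretinin gene, ranked 110, 109 and 106 there, at 2.74, 3.97 and 6.08 CPM against a median of 26.0 CPM. Egr3, an activity-dependent transcription factor gene of the cortical list, had its 3 highest levels in them, at 29.2, 18.9 and 9.55 CPM, where the median was 0.69 CPM.

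Over all 18066 genes tested JTK_CYCLE called 11.8% in controls. Of 10 oligodendrocyte genes 7 were called in controls with and without the 3 libraries, Cldn11, Ermn, Mbp and Sox10 among them. Hdc, Nkx2-2 and Slc18a2 were called in both fits of controls, out of 20 histaminergic and posterior hypothalamic genes. In GFP, Nkx2-2 was called with GFP ZT12 replicate 3, and Hdc and Slc18a2 without it. Further calls in both fits of controls were Cux2 and Slc17a7 (cortical), Prkcd (thalamic), Aldh1a1 (midbrain), Clic6 (choroid plexus), Aqp4 (astrocyte), C1qb (microglia), Cldn5 and Rgs5 (vascular), and Adcy1, Pde1b, Rgs4 and Rgs7bp (cyclic AMP). Calb2, Slc1a2 and Gnal joined without the 3 libraries and Adora1 dropped out. GFP alone had, among others, Bhlhe22, Cux2, Calb2, Clic6, Cldn11, Fgfr3, Slc1a3, Tacr1, Gnal and Pde1b in both fits, Sox10 with all libraries, and Tbr1, Agt, Slc6a11, Csf1r and Prkaca without the 3. H3.3 had Prkcd, Aqp4, Slc1a2, Adcy1, Rgs4, Rgs7bp and Cpe in both, Ermn with all libraries, and Pvalb and Nkx2-2 without the 3. Q5A had Lef1, Slc6a3 and Tmem119 in both. Differences between arms were not tested.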
